A study of Homo sapiens with 2 samples.

Results

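DNA replication genes were examined in BT549, a mesenchymal line derived from a triple-negative breast tumour. The 47 genes were taken by symbol from a list of known components, by function rather than by a cut on their values, out of 58735 genes in the tables, and the list was drawn up with earlier results of these data known. They cover origin recognition and licensing, the replicative helicase, the polymerases, the sliding clamp and its loader, single-strand binding, Okazaki fragment joining, nucleotide supply and chromatin assembly. The 2 libraries came from BT549 cells with a scrambled hairpin (the control library) and BT549 cells with shSIK2, a hairpin that lowers the kinase SIK2 (the knockdown library), and Wnt3a, a secreted ligand, had been added to both for 2 h. No difference has a replicate check, since each group held 1 library, and there was no test. The 95% intervals given in brackets after a fold reflect the counting of reads alone. Folds and intervals are of reads that were not scaled to the total of each library. Neither culture went without Wnt3a, and the labels do not say whether either line was a clone or a pool. The study's title concerns stem-like breast cancer cells, LRP6 and beta-catenin signalling.

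Before a cell copies its DNA, the origin recognition complex marks origins, and CDC6 and CDT1 load onto them the ring-shaped MCM helicase, a step called licensing. Geminin, encoded by GMNN, binds CDT1 and keeps origins from being licensed again in the same cycle. In S phase the helicase is switched on by CDC45 and the GINS complex, polymerase alpha-primase starts each strand, and polymerases delta and epsilon extend it while held on DNA by PCNA. Many of these genes are known targets of E2F transcription factors and are transcribed most around the G1/S transition.

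All 47 genes reached 1 FPKM (reads scaled for gene length, here with 1 common divisor for both libraries) in the higher library, and 46 did in both. POLA2 passed only through its level in the knockdown library. Recovered reads ranged from 51 to 4513 a gene and library, and the totals over all genes were 18019225 reads for the control and 16347399 for the knockdown. SIK2, the target of the hairpin, stood at 7.80 FPKM with 1312 reads in the control library and 3.56 FPKM with 599 reads in the knockdown library, 2.19-fold lower (95% counting interval 1.99 to 2.42). The 4 mesenchymal markers VIM, ZEB1, FN1 and SPARC lay between 13.0 and 260.3 FPKM in the control library and between 9.82 and 283.3 in the knockdown library. They were not alike in both: SPARC stood at 38.1 and 188.6 FPKM, 4.95-fold higher (4.76 to 5.14) in the knockdown library. VIM was 1.09-fold higher, ZEB1 1.14-fold lower and FN1 1.32-fold lower. ESR1, PGR, CDH1 and EPCAM stayed below 1 FPKM, and 2 of these 4 luminal and epithelial markers had no reads in either library. Together they had 17 control and 2 knockdown reads. None of 4 leukocyte and 3 endothelial markers reached 1 FPKM, with 22 and 20 leukocyte reads in all (control first) and 0 and 1 endothelial reads. The part of cells of other types in the results was not tested. In bulk RNA, a different share of cells in S phase and a different level in each cell cannot be told apart.

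Promoter sequences were matched for 41 of the 47 genes by symbol in RefSeq on GRCh38.p14. MCM4, MCM5, GINS4, POLD3, RPA2 and RPA3 were not among them. The 250 bases before each start site were searched on both strands for the E2F-type letters TTTCCCGC, TTTCGCGC, TTTGCCGC and TTTGGCGC, of which TTTCGCGC and TTTGGCGC can overlap when read from opposite strands. A match was found for 14 of the 41 genes (34.1%), against 5.90% of 8576 measured protein-coding genes and 2.79% of all 35116 promoters in the table. CCAAT, the letters bound by NF-Y, was found on either strand for 25 of the 41 (61.0%), against 41.9% of the measured protein-coding genes and 32.0% of all promoters. With the 50 bases after the start site added, a window chosen after the values were seen, E2F-type letters were present for 20 of the 41, against 6.95% of the measured protein-coding genes. A match describes the letters only and does not show that a factor binds there.

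The following stretches show the E2F-type match, in capitals, of 5 genes that were at least 1.5-fold higher in the knockdown library and of RFC3, the lowest of the 14 genes with a match. Each is read 5′ to 3′ on the strand of the gene.
CDT1, chr16:88803744-88803771, plus strand: cagggcgcccGCGGGAAAtttggcggga
LIG1, chr19:48170441-48170468, minus strand: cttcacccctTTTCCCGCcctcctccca
TYMS, chr18:657604-657631, plus strand: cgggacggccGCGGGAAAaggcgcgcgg
GINS2, chr16:85688968-85688995, minus strand: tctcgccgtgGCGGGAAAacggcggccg
POLA2, chr11:65261899-65261926, plus strand: tggctcccggTTTCGCGCatgcgtgcac
RFC3, chr13:33818084-33818111, plus strand: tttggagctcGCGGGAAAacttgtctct
The match lay 35 to 28 bases before the RefSeq start site of CDT1, 39 to 32 before that of TYMS and 31 to 24 before that of GINS2. RefSeq start sites can differ from the starts of the GENCODE gene spans. The matches shown for CDT1, LIG1, TYMS, GINS2, POLA2 and RFC3 all lie inside the GENCODE spans of these genes. That of LIG1 lay further out, 114 to 107 bases before the start. RFC3 carried the same 8 letters as CDT1, TYMS and GINS2, 55 to 48 bases before its start, and was 1.39-fold lower in the knockdown library. With trends with GC content and length removed, the log2 ratio of RFC3 was -0.14, and MCM7 (-0.40) was the lowest of the 14.

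The promoters of PCNA and MCM6 are shown at greater length as examples that hold E2F-type and CCAAT letters side by side, both in capitals. GINS2, GMNN, MCM3, MCM7, ORC3, POLA1 and POLE also had both. Of these, GMNN, MCM7, ORC3 and POLA1 were lower in the knockdown library, and GINS2, MCM3 and POLE were higher. The counting interval of GMNN included equal reads. With trends with GC content and length removed, log2 ratios were 0.00 for GMNN, 0.06 for ORC3, 0.01 for POLA1 and -0.40 for MCM7. Those of GINS2, MCM3 and POLE were then 1.11, 0.42 and 0.30. Only bases outside every annotated exon are given, 159 for PCNA and 250 for MCM6.
PCNA, chr20:5126627-5126785, minus strand: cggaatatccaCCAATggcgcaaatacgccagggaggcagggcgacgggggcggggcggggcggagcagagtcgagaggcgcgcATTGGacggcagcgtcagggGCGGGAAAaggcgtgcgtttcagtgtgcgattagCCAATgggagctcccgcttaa
MCM6, chr2:135876444-135876693, minus strand: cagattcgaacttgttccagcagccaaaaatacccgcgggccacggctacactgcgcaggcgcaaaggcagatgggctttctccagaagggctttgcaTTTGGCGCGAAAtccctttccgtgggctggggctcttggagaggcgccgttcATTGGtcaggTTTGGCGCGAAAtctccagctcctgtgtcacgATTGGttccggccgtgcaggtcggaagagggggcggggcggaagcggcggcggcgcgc
The PCNA stretch holds 1 E2F-type match and 3 copies of CCAAT, read on either strand. The MCM6 stretch holds 2 E2F-type matches, each a pair of overlapping matches on opposite strands, and 2 copies of CCAAT. PCNA was 2.17-fold higher in the knockdown library and MCM6 1.23-fold higher.

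**Figure D1:**
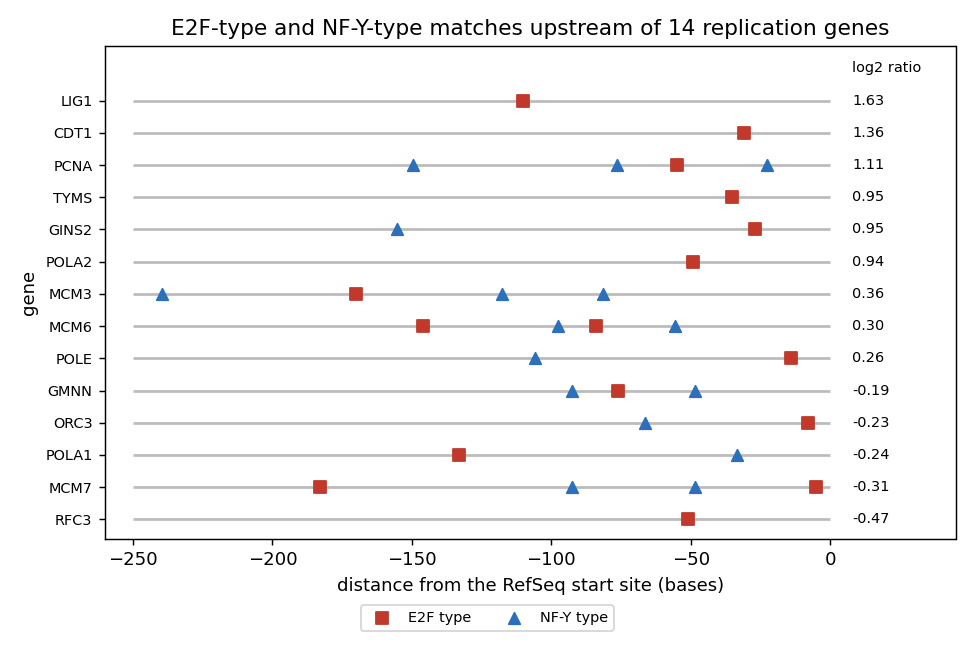
Positions of E2F-type matches (red squares) and CCAAT letters bound by NF-Y (blue triangles) in the 250 bases before the RefSeq start site of the 14 genes with an E2F-type match, ordered by log2 ratio of shSIK2 over scrambled, printed at the right. The ratios run from 1.63 for LIG1 to -0.47 for RFC3, so genes with a match are found on both sides of 0.

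The 14 genes with an E2F-type match had a median log2 ratio of knockdown over control of 0.33, and 6 of them were at least 1.5-fold higher, with 0 lower, against 16.5% and 20.4% of all measured protein-coding genes. The 27 without one had a median of 0.00, with 5 higher and 3 lower by 1.5-fold. Among all measured protein-coding genes, the 506 with a match had a median of -0.16, with 13.8% higher and 19.6% lower by 1.5-fold, and the 8070 without one a median of -0.14, with 15.9% higher and 19.9% lower. For CCAAT the split went the other way: the 25 replication genes with it had a median of -0.04, with 5 higher and 1 lower, and the 16 without it a median of 0.38, with 6 higher and 2 lower. The E2F-type split depended in part on the window. With the bases after the start site added, 6 of 20 genes with a match were at least 1.5-fold higher (30%) and 0 lower. Of the 21 without one, 5 were higher (23.8%) and 3 lower. In the 250 bases before the start site the shares that were higher lay further apart, at 42.9% and 18.5%. The medians in the longer window were 0.30 with a match and -0.04 without. Log2 ratios are of FPKM plus a pseudocount of 0.1, which understates the ratio of low genes.

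As a set, the replication genes did not differ in one direction. Of the 47, 4 were at least 2-fold higher in the knockdown library (8.51%), against 11% of 12866 measured genes, and 1 was at least 2-fold lower (2.13%), against 8.28%. Among 10666 measured protein-coding genes these shares were 8.41% and 6.64%. At 1.5-fold, 12 were higher (25.5%), against 19.7% of measured genes and 16.5% of protein-coding ones. At the same fold 3 were lower (6.38%), against 21.3% and 20.4%. The share of replication genes that was 2-fold higher was thus near that of protein-coding genes, and the share that was lower was smaller at both folds. The median log2 ratio of the 47 was 0.05, against -0.11 for all measured genes and -0.14 for measured protein-coding genes. Of the 47, 32 (68.1%) lay above the median of all measured genes and 15 below it. With no minimum level, which takes in 25018 genes, the median of all genes was 0, and 25 of the 47 (53.2%) lay above it and 21 below. The share above the median was 68.1% both at equal total reads and with a pseudocount of 1. It was 66.7% of 36 genes at a minimum of 5 FPKM. With trends with GC content and length removed, 35 of the 47 (74.5%) lay above.

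The 12 genes at least 1.5-fold higher were ORC1, CDT1, MCM5, GINS2, POLA2, POLD1, PCNA, LIG1, RRM1, RRM2, TYMS and CHAF1B. The 3 genes at least 1.5-fold lower, ORC4, ORC5 and ORC6, were subunits of the origin recognition complex. ORC4 was short of 1.5-fold at equal totals (log2 ratio -0.48), with a pseudocount of 1 (-0.52) and with trends with GC content and length removed (-0.29). With those trends removed the 3 lower genes were ORC5, ORC6 and POLD2 (-0.73), so the lower genes were not all of that complex. The counting interval of the read ratio lay wholly above 1 for 20 genes (42.6%), against 30.4% of all measured genes and 32.3% of protein-coding ones. It lay wholly below 1 for 13 genes (27.7%), against 42.9% and 47.9%. These intervals, and statements that one included equal reads, do not allow for the different totals of the libraries. Equal totals would multiply each read ratio by 1.10, which can move an interval across 1. RFC2, with equal reads, would then stand 1.10-fold higher, and RFC1 1.01-fold lower. The counts of 20 and 13 were not redone at equal totals.

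**Figure D2:**
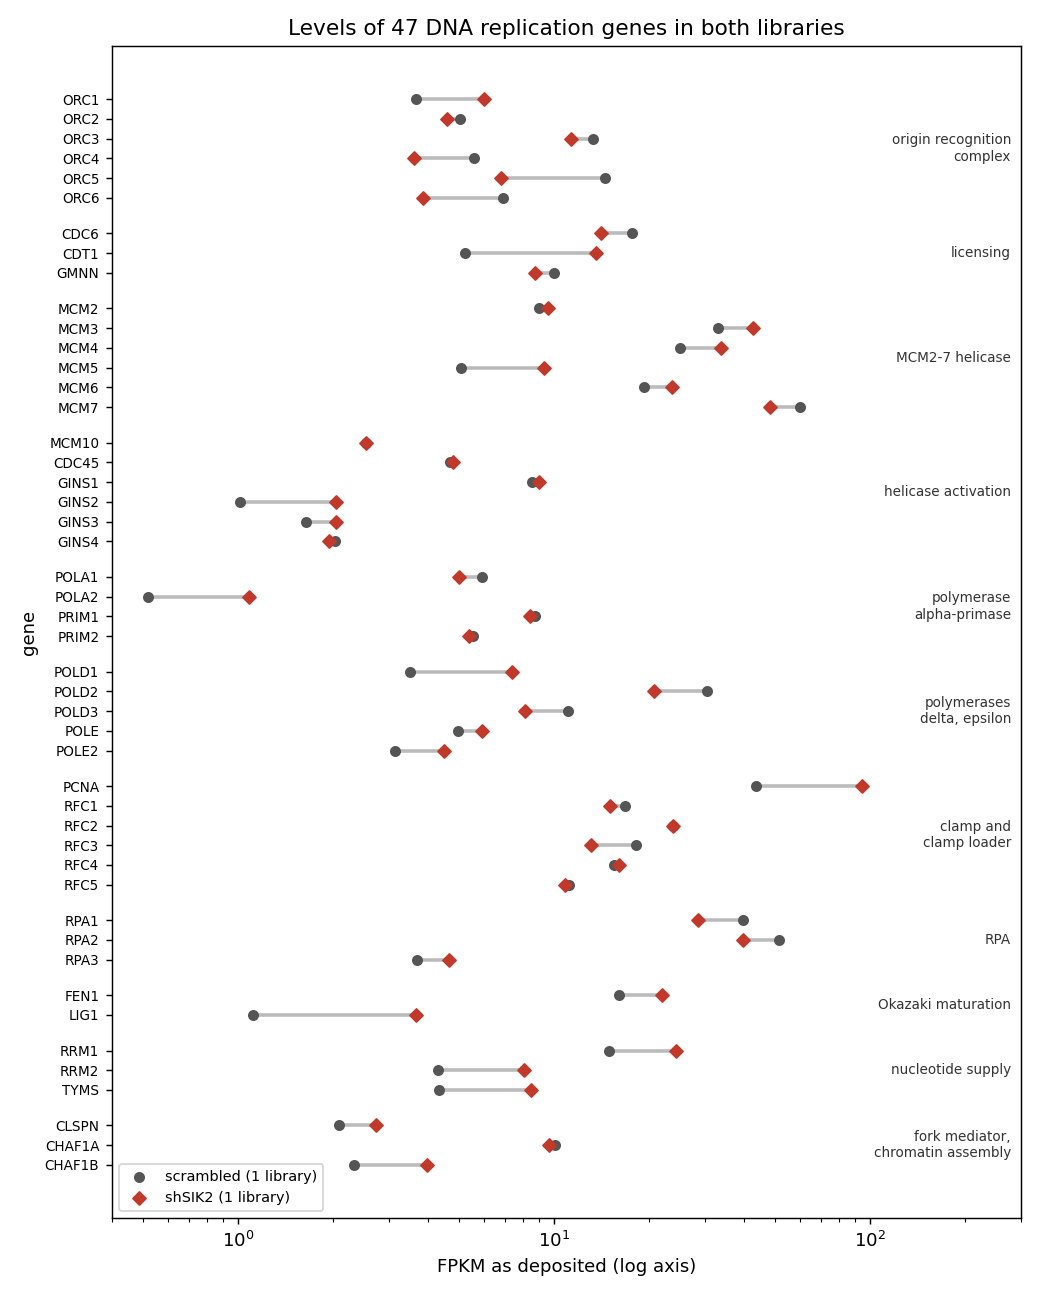
FPKM as deposited (log axis) of the 47 genes in the scrambled control (grey circles) and with shSIK2 (red diamonds), grouped by role. The widest gaps are those of LIG1 (1.12 and 3.67), CDT1 (5.22 and 13.6), PCNA (43.6 and 94.4) and ORC5 (14.5 and 6.79).

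The origin recognition complex is a ring of subunits that marks the sites where replication can start. ORC1, whose level is known to vary through the cell cycle, stood at 3.65 FPKM in the control library and 6.04 in the knockdown library, from 198 and 327 reads, and was 1.65-fold higher (1.38 to 1.98). ORC5, an ATP-binding subunit, stood at 14.5 and 6.79 FPKM, from 926 and 434 reads, and was 2.13-fold lower (1.90 to 2.40). ORC6, which joins the ring from outside its core, stood at 6.90 and 3.85 FPKM and was 1.79-fold lower (1.54 to 2.08). ORC1 was thus high in the library in which ORC5 and ORC6 were low. ORC4 stood at 5.58 and 3.60 FPKM, 1.55-fold lower (1.39 to 1.73). ORC3 was 1.18-fold lower (1.06 to 1.30), though on the other side of 0 (0.06 on the log2 scale) once trends with GC content and length were removed. The counting interval of ORC2, with 507 and 460 reads, included equal reads. ORC5 was the most abundant subunit per length and ORC1 the least abundant in the control library. In the knockdown library ORC3 was highest, with ORC5, ORC1, ORC2, ORC6 and ORC4 after it. FPKM summed over the 6 subunits was 49.0 in the control library and 36.2 in the knockdown library.

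The genes next to these on the chromosomes were looked at as well, as the 10 measured genes on each side. The 20 neighbours of ORC4 on chromosome 2 had a median log2 ratio of -0.61, close to the -0.62 of ORC4 itself, and 10 of them were at least 1.5-fold lower. The neighbours of ORC5 on chromosome 7 had a median of -0.04, with 2 at least 1.5-fold lower and 4 higher. Those of ORC6 on chromosome 16 had a median of -0.33 and those of ORC1 on chromosome 1 a median of -0.45, below 0 although ORC1 was higher.

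Among the licensing factors, CDT1 (chromosome 16, 88803213 to 88809258 on GRCh38) differed most. CDT1, which brings the MCM ring to the origin, stood at 5.22 FPKM with 299 reads in the control library and 13.6 FPKM with 777 reads in the knockdown library, 2.60-fold higher (2.27 to 2.98). CDC6, its loading partner, stood at 17.7 and 14.1 FPKM, from 1691 and 1344 reads, 1.26-fold lower (1.17 to 1.35). The log2 ratio of CDC6 was -0.33 as deposited, -0.19 at equal totals and -0.07 with trends with GC content and length removed. GMNN, the inhibitor of CDT1, stood at 10.001 and 8.75 FPKM, from 425 and 372 reads, and its counting interval included equal reads. Per length, CDT1 stood at 0.52 times the level of GMNN in the control library and at 1.55 times in the knockdown library. That order did not hold once trends with GC content and length were removed: log2 ratios were then 0.87 for CDT1 and 0.00 for GMNN, which puts CDT1 at 0.95 times the level of GMNN in the knockdown library.

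The MCM2 to MCM7 proteins form the hexameric ring of the helicase, with 1 copy of each. MCM5 stood at 5.08 FPKM in the control library and 9.31 in the knockdown library, from 640 and 1173 reads, and was 1.83-fold higher (1.66 to 2.02). MCM4 (25.02 and 33.9 FPKM), MCM3 (33.1 and 42.6) and MCM6 (19.3 and 23.7) were 1.36-fold (1.29 to 1.42), 1.29-fold (1.21 to 1.36) and 1.23-fold (1.14 to 1.32) higher. MCM7, the most abundant subunit per length, stood at 60.0 and 48.3 FPKM and was 1.24-fold lower (1.19 to 1.30). MCM2 had 757 and 808 reads, with a counting interval that included equal reads. The order of the 6 levels was the same in both libraries, from MCM7 through MCM3, MCM4, MCM6 and MCM2 down to MCM5. The highest stood 11.8-fold above the lowest in the control library and 5.18-fold in the knockdown library. Summed FPKM was 151.4 and 167.4, control first.

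Factors that turn the loaded ring into an active helicase were mostly within counting error. MCM10, which acts at helicase activation, had 239 and 238 reads, and CDC45, a helicase cofactor, 229 and 235. GINS1 stood at 8.52 and 8.95 FPKM and GINS4 at 2.03 and 1.95 FPKM, both with counting intervals that included equal reads. GINS2 was the member of this group that differed most, at 1.02 FPKM with 57 reads in the control library and 2.05 FPKM with 115 reads in the knockdown library, 2.02-fold higher (1.46 to 2.82). On the pseudocount scale its log2 ratio was 0.95, short of 2-fold. GINS3 stood at 1.64 and 2.04 FPKM, with an interval of the ratio from 0.99 to 1.56. Of the 4 subunits of the GINS complex, GINS1 had the highest level per length in both libraries.

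**Figure D3:**
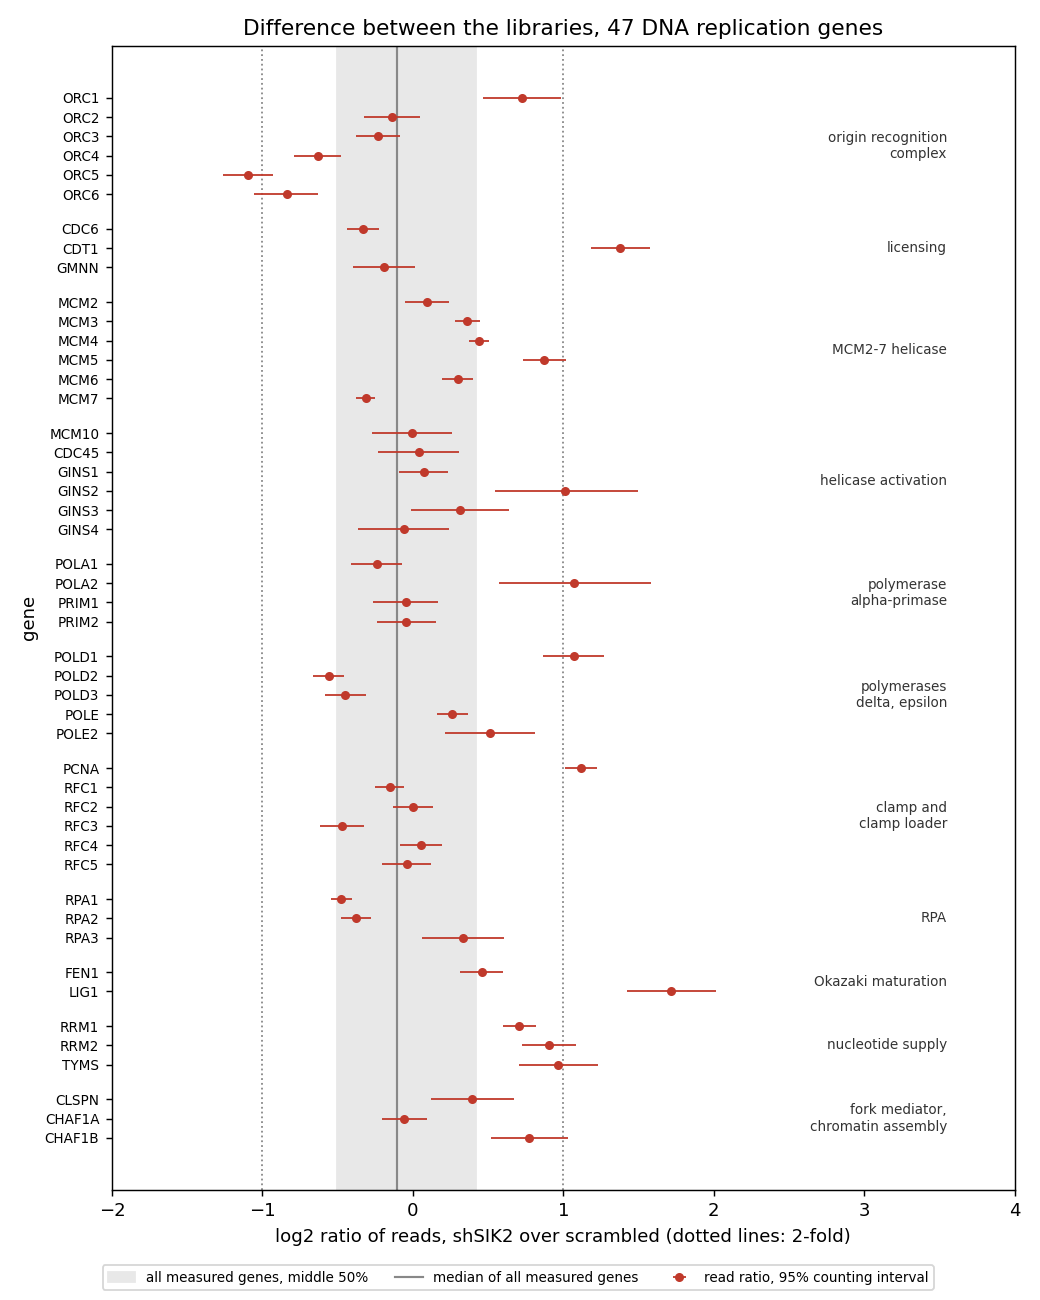
Log2 ratio of reads of shSIK2 over scrambled for the 47 genes, with 95% counting intervals, grouped by role. The grey band holds the middle 50% of all measured genes around their median of -0.11, and dotted lines mark 2-fold. LIG1, CDT1, PCNA, POLD1, POLA2 and GINS2 have read ratios past the line on the right and ORC5 past that on the left.

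Subunits of polymerase delta differed in direction. POLD1, the catalytic subunit of polymerase delta, stood at 3.52 FPKM with 298 reads in the control library and 7.38 FPKM with 625 reads in the knockdown library, 2.10-fold higher (1.82 to 2.42). Its partners were lower: POLD2 stood at 30.5 and 20.7 FPKM, 1.47-fold lower (1.37 to 1.58), and POLD3 at 11.1 and 8.11 FPKM, 1.37-fold lower (1.24 to 1.502). POLD2 stood 8.68-fold above POLD1 per length in the control library and 2.81-fold above it in the knockdown library.

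POLE, the catalytic subunit of polymerase epsilon, stood at 4.96 and 5.95 FPKM and was 1.199-fold higher (1.12 to 1.29). POLE2, its second subunit, stood at 3.15 and 4.50 FPKM, 1.43-fold higher (1.16 to 1.76). In polymerase alpha-primase, POLA2, the regulatory subunit, had 51 and 107 reads and was 2.10-fold higher (1.49 to 2.99), with a log2 ratio of 0.94 on the pseudocount scale. Of its neighbours on chromosome 11, 10 of 20 were at least 1.5-fold higher, with a median of 0.60. POLA1, the catalytic subunit, stood at 5.91 and 5.003 FPKM, 1.18-fold lower (1.05 to 1.33), with a log2 ratio of 0.01 once those trends were removed. The primase subunits PRIM1 (365 and 353 reads) and PRIM2 (446 and 433 reads) had counting intervals that included equal reads.

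PCNA, the ring that holds polymerases on DNA (chromosome 20, 5114953 to 5126626), had the highest level of the 47 genes in the knockdown library. It stood at 43.6 FPKM with 1100 reads in the control library and 94.4 FPKM with 2384 reads in the knockdown library, 2.17-fold higher (2.02 to 2.33). The RFC proteins, which open the ring and load it, did not share that difference. RFC2 had 904 reads in both libraries. RFC4 (797 and 827 reads) and RFC5 (624 and 606) had counting intervals that included equal reads. RFC1, the large subunit, was 1.11-fold lower (1.04 to 1.19), against a log2 ratio of 0.16 with the same trends removed. RFC3 stood at 18.1 and 13.1 FPKM, 1.39-fold lower (1.25 to 1.54), against a log2 ratio of -0.14 with those trends removed. The 5 RFC levels lay within 2.13-fold of each other in the control library and within 2.19-fold in the knockdown library.

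RPA1 to RPA3 form the trimer that coats single-stranded DNA. RPA1 stood at 39.8 FPKM in the control library and 28.7 in the knockdown library, 1.39-fold lower (1.32 to 1.46). RPA2 stood at 51.6 and 39.7 FPKM, 1.30-fold lower (1.21 to 1.40). RPA3, the small subunit, stood at 3.70 and 4.65 FPKM, 1.26-fold higher (1.04 to 1.52). The level of RPA3 per length was 13.96-fold below that of RPA2 in the control library and 8.54-fold below it in the knockdown library. FPKM here rests on the length of all annotated exons of a gene, so a gene with long exons that are little used has a lower value; its part in the level of RPA3 was not tested. The 20 neighbours of RPA3 on chromosome 7 had a median log2 ratio of -0.73, with 12 at least 1.5-fold lower.

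Okazaki fragments on the lagging strand are trimmed by FEN1 and joined by LIG1. LIG1, DNA ligase 1 (chromosome 19, 48115445 to 48170603), had the highest ratio of the 47 genes. It stood at 1.12 FPKM with 126 reads in the control library and 3.67 FPKM with 414 reads in the knockdown library, 3.29-fold higher (2.69 to 4.04). Of all measured genes, 5.08% had a log2 ratio at least as high. FEN1, the flap endonuclease, stood at 16.1 and 22.1 FPKM, from 683 and 938 reads, 1.37-fold higher (1.24 to 1.52). FEN1 shares 8.68% of its exon bases with other genes, among them FADS2, whose reads numbered 2961 and 7634.

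All 3 genes of nucleotide supply were at least 1.5-fold higher in the knockdown library. RRM1, the large subunit of ribonucleotide reductase, stood at 14.9 and 24.4 FPKM, from 1070 and 1748 reads, 1.63-fold higher (1.51 to 1.76). RRM2, the small subunit that limits the enzyme to S phase, stood at 4.31 and 8.08 FPKM, from 394 and 738 reads, 1.87-fold higher (1.66 to 2.12). TYMS, thymidylate synthase, stood at 4.34 and 8.47 FPKM, from 184 and 359 reads, 1.95-fold higher (1.63 to 2.34). Their summed FPKM was 23.6 in the control library and 40.9 in the knockdown library. TYMS shares 46.6% of its exon bases with ENOSF1 and TYMSOS on the opposite strand, and the strand setting of the counting was not given in the sources used here. ENOSF1 had 1061 and 811 reads, lower in the knockdown library, and TYMSOS 24 and 43.

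CLSPN, which encodes claspin, the mediator of the fork checkpoint, stood at 2.09 and 2.75 FPKM, 1.31-fold higher (1.09 to 1.59). CHAF1B, the middle subunit of CAF-1, which deposits histones behind the fork, stood at 2.33 and 3.98 FPKM, from 205 and 350 reads, 1.71-fold higher (1.43 to 2.04). CHAF1A, the large subunit, had 743 and 714 reads, with a counting interval that included equal reads.

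In 6 of 7 complexes, namely MCM2 to MCM7, ORC1 to ORC6, GINS1 to GINS4, RPA1 to RPA3, POLD1 to POLD3 and polymerase alpha-primase, the highest subunit stood fewer fold above the lowest in the knockdown library. The exception was RFC1 to RFC5. For ORC1 to ORC6 the distance was 3.96-fold in the control library and 3.15-fold in the knockdown library, and for polymerase alpha-primase 16.8-fold and 7.75-fold. In these 6 complexes other than GINS and ORC, the same gene was highest and the same gene lowest in both libraries. Ratios also differed with level over the whole table. The median log2 ratio was -0.20 over the 7665 genes that reached 5 FPKM, against -0.11 over all measured genes. The part of that in the narrower distances was not tested, and no such distances were taken for other sets of genes.

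Ratios across the whole table moved with GC content, and those of the replication genes did too. Over the 47 genes Pearson's r between log2 ratio and GC content was 0.45 and Spearman's rho 0.44. These were 0.23 and 0.28 over all measured genes, and 0.31 and 0.33 over measured protein-coding genes. Genes are not independent replicates, and all points share the same 2 libraries. CDT1, with a GC content of 64.9%, POLD1 with 65.0% and LIG1 with 56.4% are rich in GC, whereas PCNA with 45.3%, RRM1 with 43.5% and RRM2 with 45.8% are not. After medians over bins of GC content and length were subtracted, log2 ratios were 1.56 for LIG1, 1.35 for PCNA, 1.12 for RRM2, 1.11 for GINS2 and 1.05 for TYMS, all past 2-fold. CDT1 stood at 0.87 and POLD1 at 0.56 on that scale, short of 2-fold, and ORC5 at -0.83. The median of the 47 was 0.25, against 0 for all measured genes by construction. Of 19 replication genes with a GC content below 45%, 15 lay above the median of measured genes in that range, as did 5 of 9 with at least 55%.

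**Figure D4:**
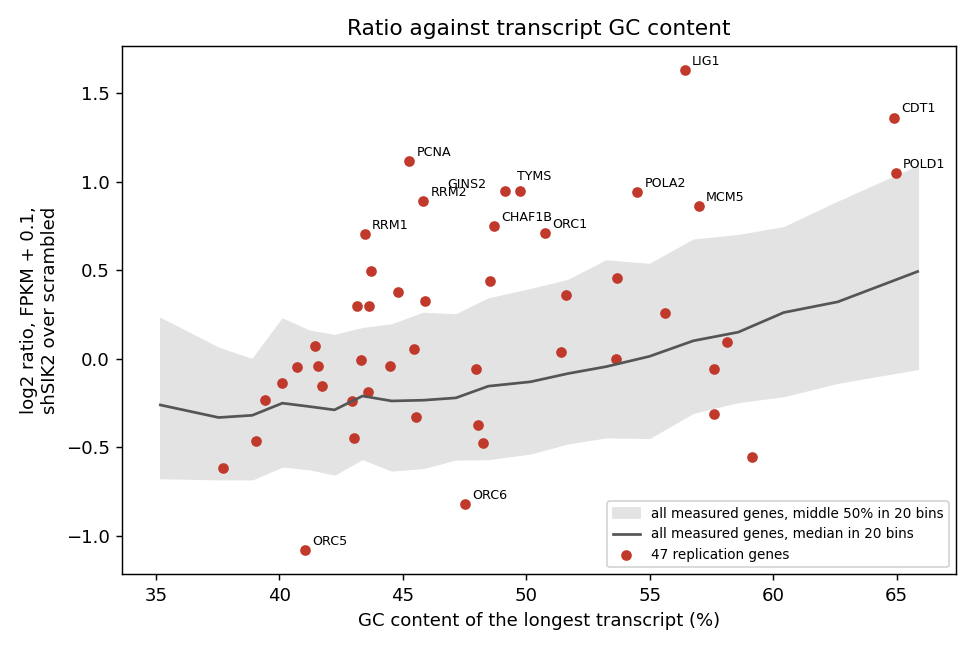
Log2 ratio of shSIK2 over scrambled against the GC content of the longest transcript. Red points are the 47 replication genes, the line is the median of all measured genes in 20 bins and the band their middle 50%. PCNA, RRM1 and RRM2 lie above the band at a GC content between 43.5% and 45.8%, while POLD1, at 65.0%, lies at its upper edge.

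Other genes of the pathway were taken from 7 lists of 78 genes, of which 76 were measured. Of these, 14 were at least 1.5-fold higher (18.4%) and 6 lower (7.89%); their median log2 ratio was 0.00. MCM9 and RNASEH2A were below 1 FPKM in both libraries. All measured genes gave 19.7% and 21.3%, so the share that was higher was near theirs and the share that was lower was smaller. By 2-fold, 5 were higher (6.58%), against 11% of all measured genes, and 1 was lower (1.32%), against 8.28%. The shares of 19.7% and 21.3% are also the background for the 1.5-fold counts of the single lists, each of which holds few genes.

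Of 15 measured genes of origin firing, 5 were at least 1.5-fold higher (33.3%) and 0 lower. CCNE2, a cyclin of the G1/S transition, stood at 1.75 and 4.12 FPKM and was 2.36-fold higher (1.92 to 2.91). RECQL4, a helicase needed to start replication, stood at 4.72 and 10.5 FPKM and was 2.22-fold higher (1.95 to 2.52), and DONSON, a factor of helicase assembly, 1.72-fold (1.52 to 1.94). Among 10 E2F factors and their partners, 2 were higher and 2 lower by 1.5-fold. E2F1, an activator, stood at 11.2 and 31.3 FPKM, from 481 and 1345 reads, 2.80-fold higher (2.52 to 3.11), and E2F2, another activator, at 2.01 and 3.87 FPKM, 1.93-fold higher (1.61 to 2.31). E2F7, a repressor of E2F targets, stood at 5.44 and 2.09 FPKM, from 588 and 226 reads, 2.60-fold lower (2.23 to 3.05). Its 20 neighbours on chromosome 12 had a median log2 ratio of -0.83, with 15 at least 1.5-fold lower and 0 higher. Those of E2F1 and E2F2 had medians of 0.08 and 0.12.

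Of 16 measured accessory polymerase subunits and fork factors, 3 were higher and 1 lower by 1.5-fold. POLD4, the smallest subunit of polymerase delta, had 26 and 59 reads, 2.27-fold higher (1.41 to 3.75), and passed the minimum only through its level in the knockdown library. CHTF18 and CHTF8, parts of an alternative clamp loader, went opposite ways, the first 1.93-fold higher (1.60 to 2.35) and the other 1.65-fold lower (1.47 to 1.85). The histone chaperone paralogs did so too: ASF1A stood at 23.4 and 11.7 FPKM, 2.00-fold lower in reads (1.80 to 2.23) but short of 2-fold on the pseudocount scale (-0.99), and ASF1B at 8.19 and 13.4 FPKM, 1.64-fold higher (1.42 to 1.89). SSRP1, a subunit of the FACT chaperone, was 1.38-fold lower (1.32 to 1.45), and 1 of 8 genes of replication-coupled chromatin was higher and 1 lower by 1.5-fold.

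Among 9 genes of the replication checkpoint, RAD9A stood at 1.15 and 3.66 FPKM, from 82 and 262 reads, 3.20-fold higher (2.48 to 4.15). The 20 neighbours of RAD9A on chromosome 11 had a median log2 ratio of 0.43, with 9 at least 1.5-fold higher and 0 lower. HUS1, which joins RAD9A in a checkpoint clamp shaped like PCNA, stood at 4.29 and 2.39 FPKM and was 1.80-fold lower (1.48 to 2.18). CHEK1, the checkpoint kinase, was 1.37-fold higher (1.23 to 1.53). Of 12 other genes of nucleotide supply, 2 were at least 1.5-fold higher: SHMT1, a folate enzyme that serves thymidylate synthesis, by 1.96-fold (1.68 to 2.28), and SAMHD1, which degrades deoxynucleotides, by 1.85-fold (1.58 to 2.16). UMPS, of pyrimidine synthesis, was 1.43-fold lower (1.32 to 1.56). Of 6 genes of licensing turnover, CDC25A, a phosphatase that activates cyclin-dependent kinases, was 1.53-fold lower (1.33 to 1.77), while SKP2 and DTL, ubiquitin ligase subunits, were 1.47-fold (1.28 to 1.68) and 1.18-fold (1.03 to 1.36) higher.

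Genes of G2 and M phase were set beside these. Of 26, 4 were lower (15.4%, against 21.3% of all measured genes) and 1 higher (3.85%, against 19.7%) by 1.5-fold, and their median was -0.29, against 0.05 for the 47 replication genes and -0.11 for all measured genes. KIF20A, a mitotic kinesin, had the highest ratio, 1.65-fold higher (1.53 to 1.78), and CENPA, the centromeric histone, the lowest, at 16.8 and 7.82 FPKM, 2.15-fold lower (1.86 to 2.50). With 1 library a group, the difference between these lists was not tested.

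**Figure D5:**
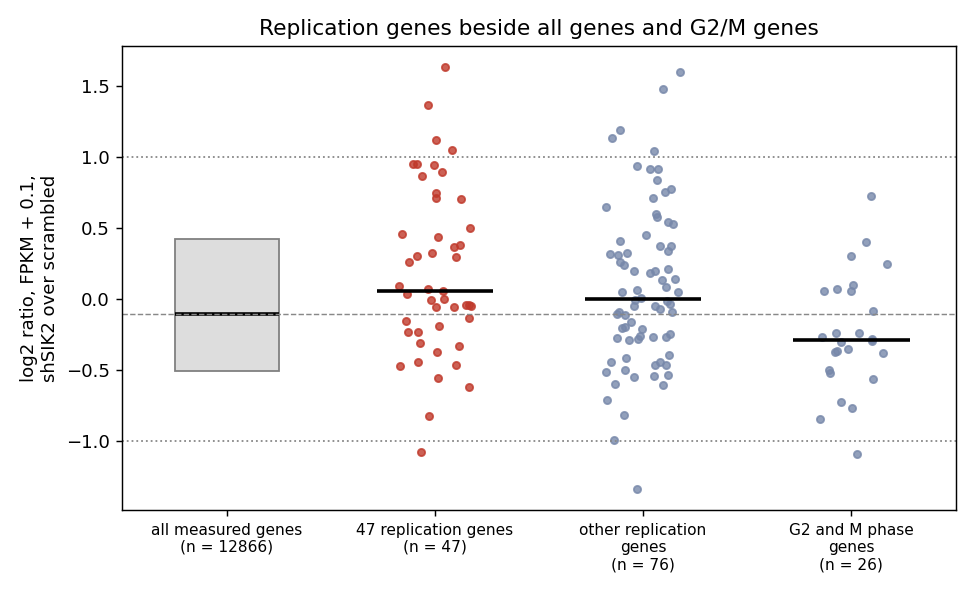
Log2 ratios of FPKM plus 0.1, shSIK2 over scrambled, for the 47 replication genes, 76 other replication genes and 26 genes of G2 and M phase, 1 point a gene, beside the middle 50% of 12866 measured genes (grey box). Black bars are medians, at -0.11, 0.05, 0.00 and -0.29 from left to right, and dotted lines mark 2-fold.

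Some values rest on genes whose exons overlap others. Besides TYMS, at least 20% of exon bases were shared in MCM2, GINS4, POLA2, PRIM1 and RRM2. The partner of POLA2 had no reads in either library and that of RRM2 had 6 and 1, whereas NACA, which overlaps PRIM1, had 5015 and 5522. Pseudogenes named after PCNA, RPA2, FEN1, RFC3, RFC5, POLD2 and TYMS had no reads in either library, and those of RRM2 had 4 and 5. The counting rule at such places was not given in the sources used here.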

How the data were processed

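Per the labels' protocols, RNA was extracted with Trizol and libraries followed standard Illumina methods. The submitters' processing notes name HISAT2 2.0.5 and hg18; counter, annotation, strand setting and formula were not given in the sources used here. The deposited tables hold FPKM for 58735 genes, per the file headers, 1 table a sample, with groups from the sample titles.

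GENCODE release 29 (GRCh38) held all 58735 identifiers and supplied symbols, lengths, GC content and coordinates; the build used for alignment is not settled. FPKM times exon length gave whole multiples of 58.3, the same step in both tables, for 100% of values above 0 (tolerance 0.02), taken as reads. Values are therefore not scaled to each library's total. Equal totals would add 0.14 (a factor of 1.10) to each log2 ratio, and the median over measured genes would go from -0.11 to 0.03.

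Measured genes reached 1 FPKM in the higher library. Log2 ratios used a pseudocount of 0.1, and folds are read ratios with exact (Clopper-Pearson) 95% intervals, although reads lacking molecular identifiers are not independent. Replication genes and lists were chosen with earlier results of these data known. Named were all 47 genes, and per other list up to 3 with the largest absolute log2 ratio and any at 2-fold, SIK2, and of the G2 and M phase genes only the highest and the lowest ratio; pairs set side by side were chosen after their values were seen. GC and length trends were removed by medians in 20 bins each. The alternatives were equal totals, a pseudocount of 1, no minimum, a minimum of 5 FPKM and trend removal. Recovery, intervals, folds and trend removal were tested on simulated data. Matplotlib 3.10.9, scipy 1.17.1, numpy 2.4.6 and pandas 2.3.3 ran under Python 3.11.15.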

Additional observations from a re-analysis of the deposited data

How the results depend on the processing

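With both libraries at equal total reads, 9 of the 47 replication genes reached 2-fold higher and 0 lower, against 4 and 1 as deposited. All measured genes gave 13.5% higher and 6% lower at equal totals, against 11% and 8.28% as deposited. MCM5, GINS2, POLA2, RRM2 and TYMS joined CDT1, POLD1, PCNA and LIG1, and ORC5 dropped below 2-fold. ORC5 was also short of 2-fold with a pseudocount of 1 and with the GC and length trend removed, where 0 genes were at least 2-fold lower. All measured genes gave 4.83% and 6.78% lower there, in that order. With that trend removed 5 of the 47 were at least 2-fold higher, against 10.7% of all measured genes. Of these 5, PCNA and LIG1 were among the 4 as deposited. Counts at 1.5-fold ranged from 8 higher (minimum of 5 FPKM, which 36 genes passed) to 14 (equal totals, trend removed) and from 2 to 3 lower. Of all measured genes, 12.4% were at least 1.5-fold higher at the minimum of 5 FPKM, 24% at equal totals and 20.7% with the trend removed. In the same order, 23.3%, 15.7% and 16.8% of all measured genes were at least 1.5-fold lower. ORC4 was lost from the lower genes at equal totals, with a pseudocount of 1 and with the trend removed, where POLD2 took its place and POLD1 (0.56) left the higher genes. The median log2 ratio of the 47 was 0.19 at equal totals, 0.25 with the trend removed and -0.04 at the minimum of 5 FPKM. The distance of 0.16 to the median of all measured genes, which equal totals cannot change, fell to 0.05 with no minimum and was 0.25 with the trend removed. Of the other replication genes, 3 were at least 1.5-fold lower at equal totals, against 6, and 7 at least 1.5-fold higher at the minimum of 5 FPKM, against 14. All measured genes gave 15.7% lower and 12.4% higher in those settings, against 21.3% and 19.7% as deposited. No gene at least 1.5-fold higher or lower changed sign under any of these alternatives. No paired analysis was possible because each group held 1 library, and no library could be left out.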
